A study of Mus musculus with 71 samples.

Results

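The Smg and Upf genes encode factors of nonsense-mediated mRNA decay (NMD), and 9 of them were followed here in mouse embryonic stem cells (mESCs). Members were chosen by gene name and are Smg1, Smg5, Smg6, Smg8, Smg9, Upf1, Upf2, Upf3a and Upf3b, which are 9 of the 21527 genes listed in the deposited tables. NMD degrades transcripts on which translation ends too early, and it also limits the level of many intact transcripts. The helicase UPF1 acts at the terminating ribosome together with UPF2 and the UPF3 proteins, is phosphorylated by the kinase SMG1 in a complex with SMG8 and SMG9, and then brings in the endonuclease SMG6 and the adaptor SMG5. Transcripts of several NMD factors are known to be NMD substrates themselves, and NMD is known to be needed for mESCs to leave pluripotency.

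RNA turnover was measured by SLAM-seq in male mESCs, pluripotent cells derived from the blastocyst and grown here in 2i/LIF medium. Transcripts were labelled for 24 h with 100 µM 4-thiouridine (s4U), which alkylation turns into T-to-C conversions in reads from transcript 3′ ends, and the label was then chased with uridine. The cells received 20 µM STM2457, an inhibitor of the m6A methyltransferase Mettl3, or 0.2% of its solvent DMSO, from 6 h ahead of the chase until lysis. Each treatment has 4 unlabelled libraries and 4 libraries at each of 8 chase times, called T0 to T7, except that STM2457 has 3 libraries at T4. The chase had lasted 0 h at T0, 1 h at T1, 1.5 h at T2, 2.3 h at T3, 3.5 h at T4, 5.3 h at T5, 8 h at T6 and 12 h at T7. Treatment had therefore lasted 6 h at T0 and 18 h at T7, so hours of treatment, hours of chase and hours in culture cannot be told apart within a treatment. How long the unlabelled cells were treated is not given in the sources used here.

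The 71 libraries form 18 groups, with 36 libraries of DMSO and 35 of STM2457. Reads counted per library ran from 4539726 to 7368244 in DMSO, with a median of 5465435, and from 4704543 to 6804970 in STM2457, with a median of 5765090. None of the 105 pairs of replicates held identical counts, and the closest pair still differed by 2.82 times sampling noise in chi-square per degree of freedom. The study calls its replicates independent and biological, while the labels name no separate cultures, and p-values measure only the spread between these libraries. Reads carry no molecular identifiers as far as the sources state, and a count is therefore not a number of independent molecules.

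Markers were read first to set the cell label beside the counts. The summed level of the 7 mESC markers in the tables was 3030 to 4953 CPM (counts scaled by library size) in DMSO, with a median of 3958, and 3252 to 4657 in STM2457, with a median of 3910. Dppa5a was the most abundant of them at a mean of 2737 CPM in DMSO, every one of the 7 had reads, and Sox2, an eighth marker, is not analysed here. The 5 primitive endoderm markers summed to medians of 4.17 CPM in DMSO and 5.95 in STM2457, mostly from Gata4. The 4 trophoblast markers summed to medians of 22.9 and 20.5 CPM, of which Cdx2 made up most with means of 22.4 and 20.3. The 5 fibroblast markers summed to medians of 10.1 and 12.7 CPM, mostly from Thy1, and 1 of them had no read in DMSO and 2 had none in STM2457. The sum of the mESC markers rested mostly on Dppa5a and on Pou5f1, with a mean of 815 CPM in DMSO. Klf4, also an mESC marker, had only 2.63 CPM there, less than Cdx2, Thy1 or Gata4.

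All 9 members were measured deeply enough to pass the filter on low counts, as did 12659 genes in all. Levels of different genes were compared per length, as CPM divided by the kilobases of the counted 3′ window. On this scale Upf1 was the most abundant member in DMSO, with a median of 893 CPM per kb over the libraries. Smg5 followed with 252, Smg6 with 222, Upf3a with 200, Smg9 with 163 and Upf3b with 123 CPM per kb. Smg1 had 81.0, Upf2 72.1 and Smg8 69.4 CPM per kb. Reads from 3′ ends need not grow with the window, and the order depends on the division: in undivided CPM the median of Upf3a was 86.7, above those of Smg5 and Smg6, and that of Smg1, with 40.5, was above that of Upf3b. The libraries of neighbours in the order per kb overlapped, except that Upf1 lay above Smg5 in every DMSO library. The fewest reads over all libraries fell on Upf2, with 60 to 160 per library in DMSO and 60 to 169 in STM2457, followed by Smg8, with 49 to 166 and 116 to 273. The most deeply counted member was Upf1, with 690 to 1890 and 832 to 1680 reads.

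To ask whether Mettl3 inhibition shifts these factors together, read counts were compared between the treatments over the whole chase, as the mean of the 8 STM2457 groups minus the mean of the 8 DMSO groups, with edgeR's quasi-likelihood test and adjustment over all genes. In this contrast 2 of the 9 members passed an adjusted p-value of 0.01, where 26.5% of all 12659 genes did. Smg8 rose, as 13.9% of all genes did, and Smg9 fell, as 12.6% did. At an unadjusted p-value of 0.05, 3 of the 9 members and 44.5% of all genes passed. The median log2 fold change was −0.07 for the members and −0.01 for all genes. These are bulk libraries scaled to their totals, in which fewer cells with a transcript and less of it per cell cannot be told apart.

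SMG8 and SMG9 bind the SMG1 kinase and restrain its activity, and their transcripts moved in opposite directions. Over all libraries, labelled and unlabelled, Smg8 had 9.87 CPM in the lowest, 17.4 in the median and 27.9 in the highest of the 36 DMSO libraries. In the 35 STM2457 libraries it had 19.6, 31.2 and 48.9 CPM. The median STM2457 library was thus above the highest DMSO library, and only the tails of the treatments overlapped. The averaged log2 fold change of Smg8 was 0.84 with an SE of 0.082 and an adjusted p-value of 1.42e-13.

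Smg8 was higher with STM2457 in 9 of 9 conditions, that is, without label and at each chase time. Without label the DMSO libraries had 13.1, 27.9, 15.6 and 19.2 CPM of Smg8 and the STM2457 libraries 28.3, 33.7, 41.5 and 43.5. At T0 the DMSO libraries had 10.7, 14.3, 16.7 and 18.3 CPM and the STM2457 libraries 34.6, 29.2, 32.3 and 42.5. At T7 the DMSO libraries had 9.87, 11.9, 21.02 and 18.96 CPM and the STM2457 libraries 25.9, 25.5, 31.3 and 28.3. In each of these conditions every STM2457 library lay above every DMSO library. This held in 8 of the 9 conditions. The exception was T5, where DMSO had 24.7, 22.1, 11.2 and 10.8 CPM and STM2457 25.4, 23.3, 32.3 and 19.6. How many of all genes had no overlap of CPM in a single condition was not counted. How unusual such a separation is, here and for other members below, therefore cannot be told.

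Single conditions hold 4 against 4 libraries, or 4 against 3 at T4, and Smg8 passed the adjusted threshold in 4 of them. Without label, where 2.58% of genes passed, its log2 fold change was 0.96 (SE 0.23, adjusted p = 0.00448). At T0, where 1.68% passed, it was 1.205 (SE 0.23, adjusted p = 0.000341). It was 1.03 (SE 0.23, adjusted p = 0.0033) at T1, where 1.53% passed, and 1.04 (SE 0.23, adjusted p = 0.00105) at T2, where 8.18% passed. In edgeR no other member passed in these 4 conditions, and DESeq2 called 1, 1, 1 and 2 members in them, the additional call being Upf1 at T2. From T3 on its log2 fold change was 0.66, 0.89, 0.55, 0.52 and, at T7, 0.84, with adjusted p-values of 0.0987, 0.0244, 0.116, 0.219 and 0.0102, and no member passed at T3, T4, T5 or T6. In those 4 conditions 1.61%, 1.3%, 4.45% and 2.34% of genes passed, and 1, 1, 2 and 2 members had an unadjusted p-value under 0.05, as had 14.3%, 13.8%, 25.7% and 16.7% of genes. DESeq2 also called no member at T3, T4, T5 or T6. Between T0 and T7 the log2 fold change of Smg8 moved by −0.36 (SE 0.33, adjusted p = 0.681), which did not pass.

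The calls of Smg8 in single conditions were not all safe against the loss of a library. At T0 it passed without any 1 of the 71 libraries and also when T0 was fitted alone. Without label it missed the threshold without DMSO replicate 1 (0.80, adjusted p = 0.0345), replicate 3 (0.86, adjusted p = 0.027) or replicate 4 (0.95, adjusted p = 0.0177), and without STM2457 replicate 3 (0.88, adjusted p = 0.0194) or replicate 4 (0.85, adjusted p = 0.0207). At T1 it missed it without DMSO replicate 1 (0.97, adjusted p = 0.0134), replicate 3 (0.95, adjusted p = 0.0217) or replicate 4 (0.98, adjusted p = 0.0154), and without STM2457 replicate 3 (0.95, adjusted p = 0.0133). At T2 it missed it without DMSO replicate 2 (0.89, adjusted p = 0.0147). Fitted alone, the unlabelled libraries gave 0.95 (adjusted p = 0.0229) and T1 gave 1.01 (adjusted p = 0.157). The same fits called Smg8 at T4 (0.89, adjusted p = 0.00366) and T7 (0.85, adjusted p = 0.00534), Upf1 at T2 (0.43, adjusted p = 0.00271) and Smg6 at T7 (−0.50, adjusted p = 0.00592), none of which passed in edgeR with all libraries in the fit. Smg8 was higher in 9 of 9 conditions and Smg9 lower in 9 of 9 with each scaling tried.

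Smg9 was lower with STM2457 in 9 of 9 conditions, by less than Smg8 was higher. Its lowest, median and highest libraries had 23.7, 42.1 and 58.2 CPM in DMSO and 20.4, 33.2 and 47.6 CPM in STM2457. The ranges overlapped over most of their width. The averaged log2 fold change was −0.27 (SE 0.055, adjusted p = 6.07e-05), and it ranged from −0.03 without label to −0.64 at T7.

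The largest difference of Smg9 was late in the chase. At T7 the DMSO libraries had 49.96, 42.3, 44.4 and 53.3 CPM and the STM2457 libraries 32.4, 33.2, 32.3 and 23.7, without overlap. Smg9 passed the threshold at T7, with a log2 fold change of −0.64 (SE 0.15, adjusted p = 0.00229), in a condition where 5.41% of genes passed and 1 of the 9 members in edgeR. DESeq2 called 2 members at T7, Smg9 and also Smg8 (log2 fold change 0.84, adjusted p = 0.00659), which edgeR left at an adjusted p-value of 0.0102. Without the lowest STM2457 library, replicate 4, the log2 fold change at T7 was −0.54 with an adjusted p-value of 0.0267, and without DMSO replicate 1 or 4 it was −0.60 and −0.57 with adjusted p-values of 0.0111 and 0.0179. At T4 the DMSO libraries had 51.4, 54.9, 54.8 and 52.4 CPM and the STM2457 libraries 37.1, 45.4 and 47.6, again without overlap, but the adjusted p-value was 0.426. The change of the treatment difference from T0 to T7 was −0.49 (SE 0.22, adjusted p = 0.274) and did not pass.

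Smg1, the kinase subunit of the same complex, was not called. It was lower with STM2457 in 8 of 9 conditions, but in only 4 of 9 without reads mapping to several places. It had 25.3, 40.5 and 50.9 CPM in the lowest, median and highest DMSO library and 27.2, 36.7 and 56.9 CPM in STM2457. The treatments overlapped in all 9 conditions. Its averaged log2 fold change was −0.07 (SE 0.067, adjusted p = 0.418), and it was 0.02 (adjusted p = 0.876) when reads mapping to several places were left out. Such reads made up 20.7% of the reads of Smg1 and at most 1.37% of those of any other member, so its level is less certain than theirs.

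**Figure D1:**
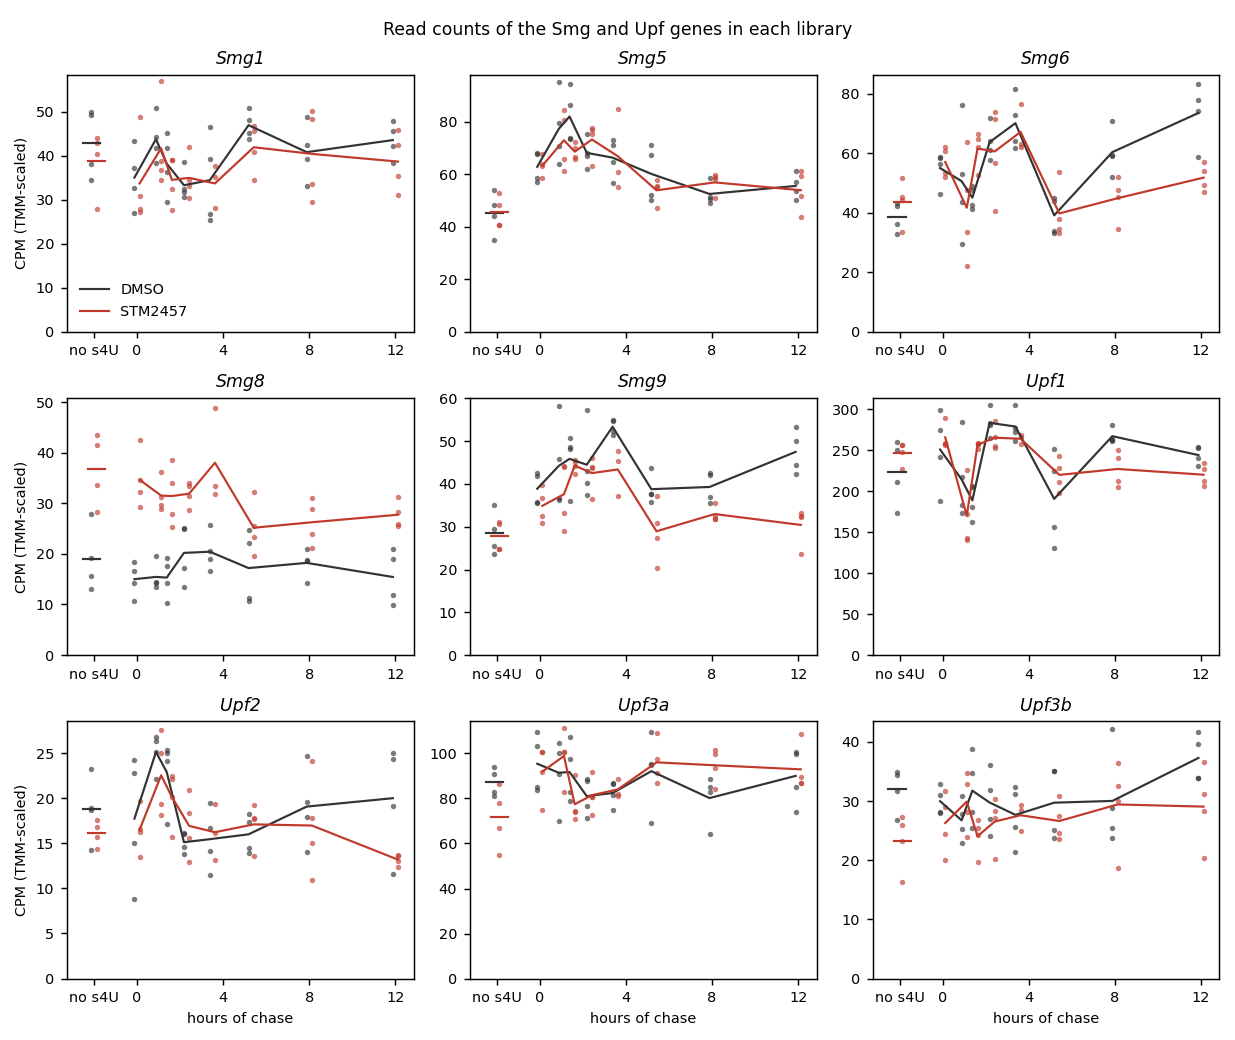
Normalised read counts of the 9 members, in CPM after TMM scaling, against the hours of chase, with points for libraries, lines for the means of each treatment and the unlabelled libraries at the left. Smg8 libraries with STM2457 lie above those with DMSO in 8 of 9 conditions, Smg9 means lie below in 9 of 9, and the treatments of the other 7 members overlap in at least 6 of 9.

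The core helicase and its UPF partners showed no averaged difference past the threshold. Upf1 had 130.2, 252 and 305 CPM in the lowest, median and highest DMSO library and 140.4, 250.5 and 289.9 in STM2457, with an averaged log2 fold change of −0.02 (SE 0.048, adjusted p = 0.785) that was 0.000244 without DMSO T5 replicate 1. At T2 every STM2457 library of Upf1, with 258.8, 258.0, 257.6 and 252.0 CPM, lay above every DMSO library, with 205.8, 180.3, 206.7 and 162.7. At T6 the order was the other way, with 212.4, 205.3, 240.5 and 250.5 CPM in STM2457 and 281.3, 263.8, 262.9 and 260.9 in DMSO. The log2 fold change was 0.44 (SE 0.14, adjusted p = 0.016) at T2 and −0.23 (adjusted p = 0.4) at T6, and neither passed in edgeR. DESeq2 called Upf1 at T2 with 0.43 (adjusted p = 0.00973). In the annotation the 3′ end of Upf1 overlaps those of Cers1 and Gdf1 on the other strand, and the use of strand in counting is not given in the sources used here.

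UPF2 links UPF1 to the UPF3 proteins, which bind the exon junction complexes left on spliced transcripts. Upf2 had 8.85, 18.5 and 26.9 CPM in the lowest, median and highest DMSO library and 10.9, 16.8 and 27.6 CPM in STM2457. Its averaged log2 fold change was −0.11 (SE 0.080, adjusted p = 0.295). The libraries of the treatments overlapped in all 9 conditions, and the lowest log2 fold change was −0.60 (adjusted p = 0.0793) at T7, where STM2457 libraries had 13.7, 13.1, 13.6 and 12.4 CPM and DMSO libraries 24.98, 11.6, 19.1 and 24.4.

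The paralogs Upf3a and Upf3b, of which the latter is on the X chromosome, also had no call in the averaged contrast. Upf3a had medians of 86.7 CPM in DMSO and 86.9 in STM2457, within 64.4 to 109.6 and 54.9 to 111.4. Its averaged log2 fold change was 0.02 (SE 0.048, adjusted p = 0.732), which turned to −0.0047 with upper-quartile scaling. Upf3b had medians of 30.9 and 27.3 CPM, within 21.4 to 42.2 and 16.3 to 36.6. It was lower in 8 of 9 conditions, with an averaged log2 fold change of −0.14 (SE 0.067), and at an adjusted p-value of 0.0867 it did not pass, although its unadjusted p-value was 0.0366. Libraries of the treatments overlapped in all 9 conditions for both genes.

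SMG5 and SMG6 act downstream of phosphorylated UPF1, the former as an adaptor for decay enzymes and the latter by cutting the transcript. Smg5 had 34.8, 62.98 and 94.96 CPM in the lowest, median and highest DMSO library and 40.6, 60.7 and 84.8 CPM in STM2457, with an averaged log2 fold change of −0.04 (SE 0.048, adjusted p = 0.585). Smg6 had 29.5, 57.2 and 83.5 CPM in DMSO and 21.9, 51.99 and 76.5 CPM in STM2457, with an averaged log2 fold change of −0.10 (SE 0.069, adjusted p = 0.257). Smg6 changed sides along the chase. At T2 the STM2457 libraries had 64.99, 62.2, 66.5 and 52.8 CPM and the DMSO libraries 42.6, 41.2, 47.6 and 48.9, whereas at T7 they had 46.98, 56.96, 53.96 and 49.4 against 77.97, 74.2, 58.8 and 83.5. The treatments did not overlap at either time, with log2 fold changes of 0.45 (adjusted p = 0.0958) at T2 and −0.51 (adjusted p = 0.0831) at T7 that did not pass with all libraries in the fit.

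Over the chase itself no member passed the threshold in edgeR or in DESeq2, which also had 1, 0 and 1 members under an unadjusted p-value of 0.05 in the contrasts that follow. In DMSO, T7 minus T0 gave 0 of 9 members past the threshold, where 13% of genes passed, and 1 member, Smg6, and 34.4% of genes had an unadjusted p-value under 0.05. Smg6 had 46.3, 56.5, 58.9 and 58.4 CPM at T0 and 77.97, 74.2, 58.8 and 83.5 at T7 in DMSO, which overlap by 1 library, with a log2 fold change of 0.42 (adjusted p = 0.107). In STM2457 the same contrast gave 0 of 9 members, where 4.72% of genes passed, and 1 member, Upf1, and 22.8% of genes had an unadjusted p-value under 0.05, Upf1 with a log2 fold change of −0.27 (adjusted p = 0.214). The difference between the treatments in T7 minus T0 gave 0 of 9 members, where 1.11% of genes passed, and 2 members and 14.2% of genes had an unadjusted p-value under 0.05, Smg6 with −0.56 (adjusted p = 0.333) and Smg9 with −0.49.

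Labelling itself was examined by setting T0 beside the unlabelled libraries. In DMSO 0 of 9 members passed in edgeR or DESeq2, where 0.513% of genes did in edgeR, and in STM2457 0 of 9 passed with either tool, where 0.521% did. At an unadjusted p-value of 0.05, 3 members passed in each treatment, where 11.4% of genes did in DMSO and 12.5% in STM2457. Smg5 came closest, with 34.8, 44.05, 53.99 and 48.3 CPM in the unlabelled and 67.96, 67.8, 57.02 and 58.4 at T0 in DMSO, and with 40.6, 40.6, 48.4 and 52.9 against 63.9, 62.9, 67.6 and 58.6 in STM2457. All labelled libraries lay above all unlabelled ones in both treatments, with log2 fold changes of 0.47 and 0.47 and adjusted p-values of 0.0572 and 0.054.

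Whether the members move together was then described without a test, by the correlation of log2 CPM between pairs of members. Over the 18 group means the 36 pairs had a median Pearson r of −0.0049, and 18 of them were above 0. Over all pairs of the 12659 genes the median was 0.0. The highest r was 0.78, between Smg6 and Upf1, and the lowest −0.68, between Smg1 and Upf1. The groups share their treatments and times, and deviations of the 71 libraries from their group means, which do not, gave a median r of −0.05 with 12 of 36 pairs above 0. Smg6 and Upf1 were again the highest pair with 0.60, and Upf1 and Upf3a the lowest with −0.49.

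Each member was also set against the mean of the standardised profiles of the other 8 over the 18 group means. Smg9 had the highest r with 0.63 (Spearman's rho 0.54), followed by Smg5 with 0.43 (rho 0.51) and Smg6 with 0.24 (rho 0.38). Upf3b, Upf2 and Upf3a had 0.16, 0.15 and −0.08. Upf1 with −0.30, Smg1 with −0.40 and Smg8 with −0.56 (rho −0.55) went against the others. Over deviations of the 71 libraries all 9 values lay between −0.20 and 0.16, so no member tracked the mean of the others within groups. The genes outside the members with the profile most like the members' mean over the 18 groups were Apobec1 (r = 0.86), Lrrc51 (r = 0.85), Zfp444 (r = 0.84), Cux2 (r = 0.84) and Chd2 (r = 0.83). Over deviations their r was −0.03, −0.14, −0.01, 0.20 and −0.06.

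Smg6 and Upf1, the pair with the highest r, also moved with a measure of how levels in a library depend on the base composition of the counted windows. For each library, the deviations of log2 CPM from the mean of all libraries were regressed on the share of T in the counted windows, and the slope ran from −1.34 to 4.81 with a median of −0.22. The level of Upf1 had an r of −0.73 (rho −0.63) with this slope over the 71 libraries and that of Smg6 one of −0.71 (rho −0.69). Both genes were therefore low in libraries in which windows rich in T were high. The other members had r between −0.19 (Smg8) and 0.52 (Upf3a), the median absolute r over all genes was 0.30, and 91.6% of genes had a smaller absolute r than Upf1. The window of Upf1 held 22.7% T and that of Smg6 29.1%, beside a median of 30.3% over all genes tested. Upf3a, whose r was positive, had 22.4% T, and Smg9, with the lowest share at 18.5%, had an r of −0.09. Why Upf1 and Smg6 had the strongest r was not tested. At T2, where Upf1 and Smg6 were higher with STM2457, the mean slope was 0.37 in DMSO and −1.18 in STM2457. At T6, where both genes were lower with STM2457, the mean slope was −0.58 in DMSO and −0.18 in STM2457. At T7, where Smg6 was lower, it was −1.06 and −0.08. The r between Smg6 and Upf1 over the 71 libraries was 0.71, and 0.40 with the slope removed from both. With the slope as a covariate of the fit, a setting chosen after these levels had been seen, Smg6 passed the threshold in the averaged contrast with a log2 fold change of −0.20 (SE 0.053, adjusted p = 0.00178), so that 3 of 9 members were called, and Smg8 and Smg9 had 0.84 and −0.25. The part of base composition in the single time points was not tested.

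Decay of the label was measured from conversion rates, the T-to-C conversions divided by the T positions that reads covered. From each rate the mean of its own treatment without s4U was taken away as background, the result was expressed as a share of that at T0, and an exponential decay starting at 1 was fitted to the averaged rates. Coverage set the precision of these rates. The median library covered 32716 T positions of Upf1, 10293 of Upf3a, 7624 of Smg6, 5123 of Smg5, 5009 of Smg1, 4251 of Smg8, 4003 of Upf3b, 2683 of Smg9 and 1801 of Upf2. In all 8 unlabelled libraries together, the members had between 7 (Upf2) and 96 (Upf1) conversions.

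At T0 the conversion rate of Smg8 averaged 2.20% ± 0.57 in the DMSO libraries and 1.202% ± 0.33 in those with STM2457 (SD, n = 4 each), with an exact two-sided permutation p of 0.0571. That of Smg5 was 1.42% ± 0.12 and 1.14% ± 0.25 (n = 4 each, exact permutation p = 0.0857). The other 7 members had mean rates between 1.16% and 1.61% and exact permutation p-values of 0.2 or more. With 4 against 4 libraries the smallest p that the 70 splits allow is 0.0286, and the treatments overlapped for all 9 members.

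In the averaged rates Smg8 lost its label faster in DMSO than in STM2457. In DMSO its conversion rate was 2.20% at T0, 0.869% ± 0.051 at T1, 0.686% ± 0.18 at T2, 0.820% ± 0.33 at T3, 0.455% ± 0.34 at T4 and 0.081% ± 0.064 at T5 (SD, n = 4 each). In STM2457 it was 1.202% at T0, 1.21% ± 0.33 at T1, 1.42% ± 0.56 at T2, 1.03% ± 0.27 at T3, 0.733% ± 0.10 at T4 (n = 3) and 0.075% ± 0.019 at T5 (SD, n = 4 elsewhere). After subtraction of the background, 37.98% of the T0 label remained at T1 in DMSO and 100.9% in STM2457. At T2 the share in STM2457 was 118.1%, above that at the start. At 3.5 h 18.6% remained in DMSO and 60.4% in STM2457, and from 5.3 h on both were under 5%. Most of the difference in remaining label was present at T1, and it rests on the T0 rates, by which the shares are divided and of which that in DMSO was the higher.

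Fits to averaged rates gave Smg8 a half-life of 1.02 h with DMSO and 3.73 h with STM2457, a log2 ratio of 1.88. With every library as its own point, its fit exceeded the limit of 0.3 on the residual standard error. Among 7408 transcripts with a half-life in both treatments, only 1.28% had a shorter one in DMSO, whereas 58.3% had a shorter one in STM2457, and 99.6% had a smaller log2 ratio. Over all these transcripts half-lives had a median of 3.19 h with DMSO and 3.45 h with STM2457, and the median log2 ratio was 0.07. The single exponential described the STM2457 points poorly, with 4.85% of the label left at 5.3 h where the curve gives 37.4%, so that these half-lives summarise the decay and do not trace it. For all 9 members in both treatments the points at 5.3, 8 and 12 h lay below the fitted curve. Libraries that shared a replicate number were also joined into 4 series per treatment, by the number alone, so that a series need not follow a single culture. Each series was fitted, series 4 of STM2457 without the point at 3.5 h, for which it has no library. For Smg8 these gave 0.677, 1.10, 0.892 and 1.90 h in DMSO and 3.96, 3.83, 3.07 and 4.32 h in STM2457. No series overlapped between the treatments for Smg8. It was 1 of the 7 members among the 5772 transcripts whose series were compared, and 4.35% of these transcripts were without overlap.

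**Figure D2:**
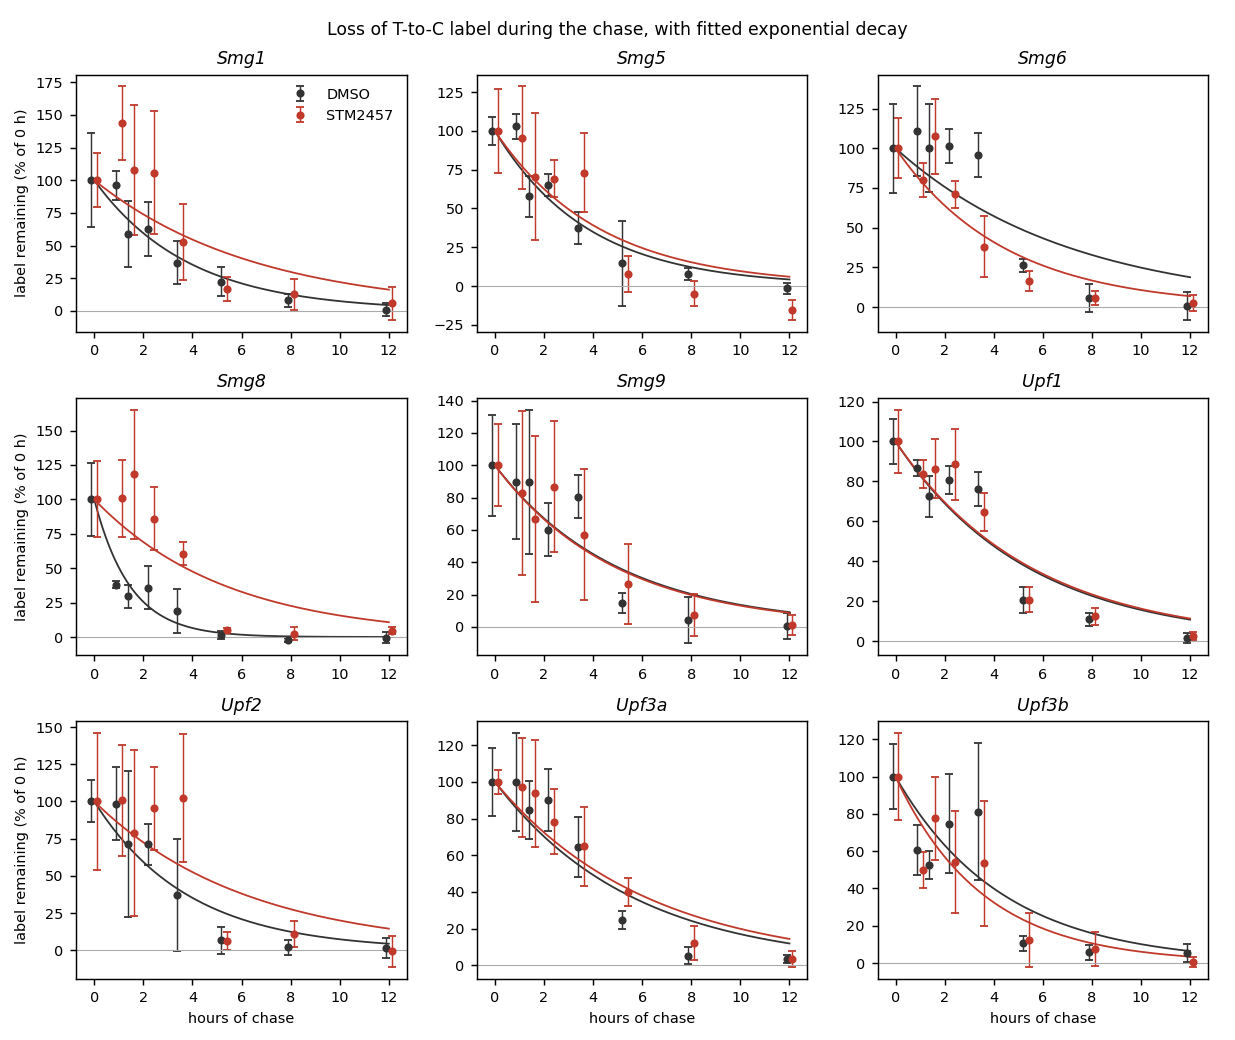
Share of the T0 label that remained, in percent after subtraction of the unlabelled background, against the hours of chase for the 9 members, with points for means, bars for SDs over the libraries of a treatment and curves for the fitted exponential decays. For Smg8 37.98% remained after 1 h in DMSO and 100.9% in STM2457.

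Across transcripts limma called no half-life, in 5772 transcripts and thus 0%, and 0 of 7 members, at an adjusted p-value of 0.05. At an unadjusted p-value of 0.05, 394 transcripts (6.83%) and 2 members passed. The members were Smg8, with a log2 difference of 1.83 (SE 0.35, unadjusted p = 0.000427, adjusted p = 0.524 in limma), and Smg6, with −0.73 (SE 0.29, unadjusted p = 0.0288, adjusted p = 0.711 in limma). The longer half-life of Smg8 with STM2457 therefore did not pass adjustment over all transcripts.

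Smg6 went the other way. Its half-life from averaged rates was 4.98 h with DMSO and 3.10 h with STM2457, a log2 ratio of −0.68, and 5.74% of transcripts had a lower ratio. The replicate series had 8.0001, 5.36, 5.19 and 3.43 h in DMSO and 3.46, 3.44, 2.51 and 3.34 h in STM2457. The lowest DMSO series lay just under the highest of STM2457. In DMSO 95.8% of its label remained at T4 and 26.3% at T5, so that its points lay above and then below the fitted curve.

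The other members of the SMG1 complex had half-lives that were less certain. Smg9 had 3.48 h with DMSO and 3.42 h with STM2457, with series from 2.23 to 6.70 h and from 0.86 to 5.98 h. Smg1 had 2.67 h and 4.58 h, but its residual standard error of 0.307 in STM2457 was over the limit of 0.3, and it was not among the 8 of 9 members that passed. Its rate in STM2457 was higher at T1, at 1.65%, than at T0, at 1.16%. Neither gene therefore gives a half-life difference that stands out from its series.

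Among the Upf genes, Upf1 had half-lives of 3.74 h with DMSO and 3.83 h with STM2457, and Upf3a 3.92 h and 4.30 h. Their series overlapped, from 3.19 to 4.37 h and from 3.09 to 4.46 h for Upf1. Upf3b had 3.03 h and 2.47 h, with series from 1.99 to 5.37 h and from 1.25 to 3.80 h. Upf2 had 2.66 h and 4.31 h, but series 2 of STM2457 came out at 29.9 h, beyond the limit of 18 h, and Upf2 was left out of the test over transcripts. The effector Smg5 had 2.63 h and 2.96 h, with series from 2.26 to 3.29 h and from 2.13 to 3.40 h. Its log2 ratio of 0.17 became −0.10 without T4 and −0.11 without STM2457 replicate 4, and 0.45 with the background taken from all 8 unlabelled libraries. With single replicates left out, the log2 ratio also took both signs for Smg9 (−0.34 to 0.45), Upf1 (−0.06 to 0.18) and Upf3b (−0.60 to 0.07), and it ran from 0.15 to 1.17 for Upf2. Taken over the 8 members that passed, the median half-life was 3.25 h with DMSO and 3.58 h with STM2457 and the median log2 ratio 0.08, beside 3.19 h, 3.45 h and 0.07 for all transcripts.

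**Figure D3:**
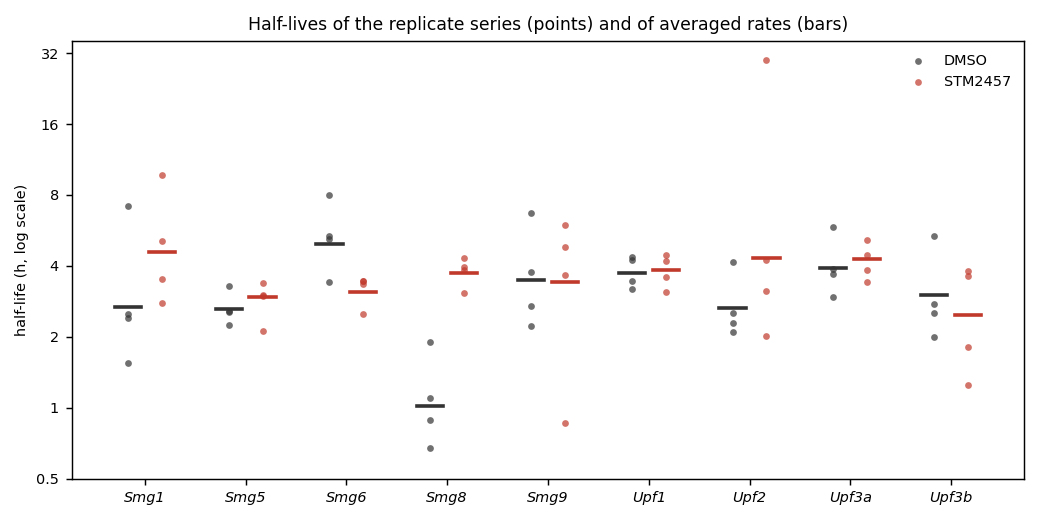
Half-lives of the 9 members in hours, on a log scale, for DMSO and STM2457, with points for the 4 replicate series of a treatment and horizontal bars for the half-lives from averaged rates. The Smg8 series lie between 0.677 and 1.90 h in DMSO and between 3.07 and 4.32 h in STM2457, while the series of the other members overlap, and 1 Upf2 series with STM2457 lies at 29.9 h.

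Mettl3 methylates adenosine in the letters GGAC followed by A, C or T more often than elsewhere, so these matches were counted in the annotated transcripts (GENCODE M21, GRCm38). The members had between 8 matches (Upf3a) and 32 (Smg1 and Smg6), beside a median of 11 over 12230 genes with a coding transcript. Smg8 had 13 matches in 3218 bases, or 4.04 per kb, beside a median of 3.72 per kb, and 57.1% of genes had a lower density. Smg6 had the highest density with 5.47 per kb and Smg1 the lowest with 2.06 per kb. In density of matches Smg8 was thus near the middle of all genes. Its exon structure was less usual, with 4 exons beside a median of 9, and its longest internal exon had 873 bases beside a median of 209. Smg6 had the longest internal exon of the members with 1756 bases, and Smg1 the most exons with 63. A match says only that the letters are present, and methylation was not measured in these libraries.

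The last 3 matches in the coding sequences of Smg8 and Smg9 are printed because these are the members that were called in opposite directions. Capitals mark the match within 25 bases of the transcript strand, and names give the position of the match in the coding sequence. Smg8 lies at chr11:87077732-87086774 on the minus strand and Smg9 at chr7:24399619-24422778 on the plus strand of GRCm38.
Smg8 position 2408: attgtcatcaGGACTagagctgaag
Smg8 position 2620: gatgggaagtGGACCcaaggagtcg
Smg8 position 2893: gactgagagaGGACCttgtttccct
Smg9 position 1131: cacgtagggaGGACTtctgtccccg
Smg9 position 1302: tgcccttcatGGACAgtgaagctga
Smg9 position 1339: acctcgagcaGGACCtggctccagc

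Between the last match of Smg8 and the end of its coding sequence lie 76 bases, and for Smg9 217 bases, with 12 and 8 matches in the coding sequences. Over the 9 members, between 9 bases (Smg1) and 461 bases (Upf2) follow the last match in the coding sequence.

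Genes that work with the members were taken from lists and read in the averaged contrast, in which 13.9% of all genes rose and 12.6% fell. Of the 3 other NMD factors Dhx34, Nbas and Pnrc2, 0 passed in edgeR or DESeq2, and 0 had an unadjusted p-value under 0.05 with either tool. Their log2 fold changes ran from −0.22 (Dhx34, adjusted p = 0.152) to −0.08 (Pnrc2, adjusted p = 0.441). Of the 7 genes for assembly of SMG1 and related kinases (R2TP and TTT complexes), 1 rose and 3 fell, with a median of −0.16. Tti1 rose by 0.26 (adjusted p = 0.00408) and Ruvbl2 had −0.20 (adjusted p = 0.00295). Pih1d1 and Rpap3 had −0.17 each (adjusted p = 0.00826 and 0.00887), and both missed the threshold without the filter on low counts, with adjusted p-values of 0.0236 and 0.0227, and kept it in 52 and 48 of the 71 fits with 1 library left out. Rpap3 also missed it with the slope as a covariate (adjusted p = 0.0315). Of the 7 genes 6 had a negative log2 fold change.

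Exon junction complexes mark spliced transcripts for the UPF3 proteins. Of the 5 core genes 1 rose, Casc3 with 0.24 (SE 0.035, adjusted p = 3.96e-08), and 1 fell, Magohb with −0.25 (SE 0.056, adjusted p = 0.00022), with a median of 0.04. Of 4 peripheral genes 1 rose in edgeR, Acin1 with 0.44 (SE 0.093, adjusted p = 9.74e-05), and 1 fell, Sap18 with −0.20 (SE 0.051, adjusted p = 0.00108), with a median of −0.12. DESeq2 called 3 of these 4 genes. Sap18 had −0.03 (adjusted p = 0.889) without multimapping reads. As among the members and among all genes, calls went in both directions.

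UPF1 also contacts the termination factors eRF1 and eRF3, encoded by Etf1 and by Gspt1 and Gspt2. Of these 3 genes 2 fell, Etf1 with −0.30 (SE 0.052, adjusted p = 3.62e-06) and Gspt1 with −0.25 (SE 0.053, adjusted p = 8.31e-05), with a median of −0.25. Gspt2 had 0.23 (adjusted p = 0.0463), which did not pass. Of the 5 cap-binding and poly(A)-binding genes 1 fell, Ncbp1 with −0.24 (SE 0.038, adjusted p = 2.37e-07), with a median of −0.06. Of 12 known NMD targets 10 were measured and 3 rose and 3 fell, with a median of −0.03, and Gas5 and Snhg1 are not analysed here. Zfas1 with 0.25 (adjusted p = 5.92e-08) and Tbl2 with 0.40 (adjusted p = 3.42e-05) rose, and Gadd45a with −0.76 (adjusted p = 1.57e-06) and Ddit3 with −0.37 (adjusted p = 0.000114) fell. Beyond the 4 with the smallest p, named after their values were seen, Atf4 rose with 0.09 and Smad7 fell with −0.40. Transcripts that NMD is known to limit thus moved both ways, as Smg8 and Smg9 did. Among all genes 13.9% rose and 12.6% fell in the same contrast.

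Of the 7 mESC markers 4 rose in edgeR and 0 fell, with a median of 0.33, namely Esrrb with 0.64 (adjusted p = 1.42e-17), Zfp42 with 0.69 (adjusted p = 3.08e-12), Nanog with 0.36 (adjusted p = 1.73e-10) and Tfcp2l1 with 0.33 (adjusted p = 1.54e-05). The markers with most of the reads, Dppa5a with −0.02 and Pou5f1 with 0.00, and Klf4 with 0.09 were not called. Of the other markers 1 of 5 for primitive endoderm, 3 of 4 for trophoblast and 2 of 5 for fibroblasts could be tested in edgeR, DESeq2 tested 2, 3 and 2, and 0 passed in either. Their medians in edgeR were 0.23, 0.51 and −0.23. The trophoblast median is the value of Hand1, at a mean of 1.07 CPM in DMSO, and Krt7, the gene above it, had an SE too large to read its value, while the genes that make up most of the sums went otherwise, with −0.04 for Cdx2 among the trophoblast markers and 0.31 for Thy1 among those of fibroblasts. At an unadjusted p-value of 0.05, 1 of these markers passed in edgeR, Thy1 (adjusted p = 0.0291), and 1 of the fibroblast markers in DESeq2. Whether the rise of the 4 mESC markers has a part in the levels of Smg8 and Smg9 was not tested.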

How the data were processed

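SLAM-seq of 71 libraries of male mESCs was analysed. The authors checked reads with FastQC 0.11.8, mapped them to GRCm38.p6 with SLAM-DUNK and collapsed the 3′ windows of a gene. They deposited, per gene and library, raw counts of reads, of multimapping reads, of covered T positions (coverage) and of conversions from T to C. None of these had been normalised. The deposited conversion rate is a fraction, conversions divided by covered T positions, and was recomputed here from these counts. Chase hours come from the study, since labels give only T0 to T7.

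Read counts were tested with edgeR 4.0.16 (quasi-likelihood, TMM, filterByExpr by group, Benjamini-Hochberg adjustment, adjusted p under 0.01) in R 4.3.3, with all 18 groups in one fit. Printed CPM are scaled by TMM, and log2 CPM for correlations used a prior count of 2. Half-lives were fitted by least squares with numpy 2.4.6 and pandas 2.3.3 under Python 3.11.15. They were kept with a mean T coverage over 100, a half-life of 0.67 to 18 h and a residual standard error up to 0.3. Their series were compared with limma 3.58.1 (trend, adjusted p under 0.05). T0 rates were compared by exact permutation tests. Scripts were tested on simulated data, and figures were drawn with matplotlib 3.10.9.

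Alternatives were DESeq2 1.42.0, no TMM factors, upper-quartile factors, no filter, a replicate block, each condition alone, no multimapping reads, an adjusted p of 0.05, single libraries left out and, for half-lives, pooled conversions, another background, a fitted start, no T4, single libraries as points, other limits and remaining label without a model. The lists were mES cell, primitive endoderm, trophoblast and fibroblast markers, other NMD factors, exon junction core and periphery, translation termination, SMG1 assembly, cap and poly(A) binding and NMD targets. From each, genes past the threshold in the averaged contrast were named, at most 4 by smallest p, and the 5 genes most like the members' mean profile. The result of 1 listed gene is not reported here. Members and lists were chosen with earlier results of these data known.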

Additional observations from a re-analysis of the deposited data

Results flagged for a closer look

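Groups of 4 libraries or series were searched for a single value far from the other 3, measured as its gap to the nearest other value divided by the range of the group. Chance alone passes Dixon's 95% limit for this ratio in about 1 in 20 groups, and 12 of 189 groups passed it. Among read counts these were Smg1 in STM2457 at T0 with 0.8346, Smg5 in STM2457 at T3 with 0.8557 and at T6 with 0.8401, Upf2 in DMSO at T2 with 0.8444 and Upf3a in STM2457 at T7 with 0.8809. Upf1 passed in DMSO at T6 with 0.8564 and in STM2457 at T0 with 0.9141. Smg9 in STM2457 at T7 had 0.9112, where replicate 4 had 23.7 CPM and the others 32.3 to 33.2. Among conversion rates, Smg1 in STM2457 at T0 had 0.8966 and Smg9 in DMSO at T0 had 0.8575. Among half-lives of the STM2457 series, Smg6 had 0.8699, where series 3 was at 2.51 h and the others at 3.34 to 3.46 h, and Upf2 had 0.9205, where series 2 was at 29.9 h.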

How the results depend on the processing

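The averaged contrast called 2 of 9 members under every alternative run, except 3 with the slope on the T share of windows as a covariate, which was chosen after seeing the data. Smg8 ran from 0.81 to 0.87 and Smg9 from −0.28 to −0.25 with single libraries left out, and DESeq2 gave 0.84 and −0.27. The calls of members summed over the 9 conditions were 5, and 8 at an adjusted p-value of 0.05, 7 with DESeq2 and 7 with each condition fitted alone. With single libraries left out they were 4 to 6, and the count of members was 2 to 2 in the averaged contrast and 0 to 0 in T7 minus T0, in the difference of T7 minus T0, in T0 minus unlabelled and for half-lives.

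Replicates are numbered 1 to 4 under either treatment. Libraries with the same number, as deviations from the means of their groups, had correlations of −0.077 to 0.270 in 35 pairs, with a mean of 0.0097 and 1 pair over 0.1, so the numbers do not pair the libraries. With the replicate block the averaged contrast called 2 members, Smg8 with 0.84 and Smg9 with −0.27, and 3375 genes in place of 3357. Over the 9 conditions the block gave 6 calls. For half-lives same-numbered series had correlations of 0.0035 to 0.026, and the block gave 0 members.

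Signs turned only in values that were not called. The averaged log2 fold change of Smg1 was 0.0196 without multimapping reads, that of Upf1 0.000244 without DMSO T5 replicate 1 (−0.0476 to 0.000244 over the libraries left out), and that of Upf3a −0.0047 with upper-quartile scaling. The treatment difference in the T0 rate ran from −0.136 to 0.143 percentage points for Smg9, from −0.0336 to 0.136 for Upf3a and from −0.232 to 0.0392 for Upf3b with single libraries left out. The cause was not tested. Calls of Smg8 in single conditions were lost without 1 library in 5 settings for the unlabelled libraries (highest adjusted p 0.0345), 4 at T1 (0.0217) and 1 at T2 (0.0147), and none at T0. The log2 half-life ratio of Smg8 was 1.68 to 2.14 with single replicates left out and 1.42 with the start of the decay fitted. With every library as its own point, the fits of Smg1, Smg8, Smg9 and Upf2 exceeded the residual limit.

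Some members were covered by few reads. Smg8, Upf2 and Upf3b had under 300 reads in every library, and 4 libraries per condition gave Smg8 an SE of about 0.23 on the log2 scale.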
